A study of Homo sapiens with 6 samples.

Results

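Amino acid transporters were examined by RNA-seq in K562 cells, a human chronic myeloid leukemia line that carries the Bcr-Abl fusion, in which the long noncoding RNA lncRNA-IUR1 was depleted. The group comprised 10 genes chosen by name, with earlier results of these data known, out of 12486 genes in the deposited expression table: SLC7A11, SLC7A5, SLC3A2, SLC7A1, SLC1A4, SLC1A5, SLC38A1, SLC38A2, SLC6A9 and SLC43A1. All 10 were listed, and 10 of 10 passed the filter on low values used for testing. Control cells stably expressed an shRNA against luciferase (sh-luc), and knockdown cells stably expressed an shRNA against lncRNA-IUR1 (sh-IUR1), which the sample labels call lncRNA-up91. Each group had 3 libraries, of which 1 is unnumbered and the other two are called r1 and r2. No drug treatment is named in the labels of either group, and both groups share the lentiviral shRNA background. A single human shRNA against lncRNA-IUR1 is given in the methods, and whether the infected cells were pools or clones is not given there. Expression of lncRNA-IUR1 itself was not analysed here, which leaves the depth of the knockdown in these libraries unchecked. The paper examined lncRNA-IUR1 by RT-PCR in K562 cells with the sh-luc or the sh-IUR1 construct.

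Amino acids enter cells through carriers of the solute carrier (SLC) families, which differ in the amino acids they accept and in whether they exchange one amino acid for another or move it with sodium. SLC3A2 is the heavy chain (CD98) that brings several light chains to the plasma membrane, among them SLC7A5 and SLC7A11. Many of these carriers are known targets of ATF4, the transcription factor made when amino acid shortage or other stress leads to phosphorylation of eIF2α, and some are known targets of MYC.

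Expression was given as FPKM, mapped fragments scaled by gene length and by library size. The FPKM of all listed genes summed to between 579820 and 606240 per library, which is not a sequencing depth, and the correlation of log2(FPKM + 1) across genes (Pearson's r) lay between 0.9903 and 0.998 for pairs of libraries. The unnumbered sh-luc library stood apart: it held the lowest value of the 6 libraries for 37.5% of the 12276 genes tested, against 6.18% to 22.2% for each of the others, and the highest for 23.7%, against 11.3% to 25.8%. The upper end of both ranges was sh-IUR1 r1, which was thus also often extreme. Results are given with and without the unnumbered sh-luc library, and for the main counts without each of the other libraries. All 12 markers fixed for K562 cells were listed, with HBG2 at a mean of 2915 FPKM the highest, and their summed FPKM was 5406 to 6903 in sh-luc and 5308 to 5893 in sh-IUR1 libraries. Of 12 markers of lymphoid, monocytic, fibroblast and epithelial cells, 6 were listed and 5 were tested, with EPCAM at a mean of 41.1 FPKM the highest, and the sum of the tested markers was 44.3 to 54.1 FPKM in sh-luc and 43.6 to 46.9 FPKM in sh-IUR1 libraries. In both sums the highest library was the unnumbered sh-luc library. HBG2 and HBG1 made up most of the first sum and EPCAM most of the second. Single markers differed: 4 of the 12 K562 markers (NFE2, ABL1, TAL1 and BCR) were lowest in that library. CD3E was listed at 0 in 1 library. In bulk RNA, fewer cells of a type and less RNA per cell cannot be told apart.

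All 10 transporters had their lowest FPKM in the unnumbered sh-luc library, which was the lowest for 37.5% of all genes tested. For 8 of the 10 the highest was in sh-IUR1 r1, which was the highest library for 25.8% of all genes tested. Their mean FPKM over the 3 libraries was higher in sh-IUR1 than in sh-luc for 10 of 10, by 1.09-fold (SLC38A2) to 1.34-fold (SLC6A9), but 0 of 10 was called by limma at an adjusted p-value under 0.05. The share of all 12276 genes called at that threshold was 0%. For every transporter the libraries of the 2 groups overlapped, whereas 7.07% of all genes tested had no overlap between groups. At an unadjusted p-value under 0.05 limma called 0 of the 10 transporters and 2.65% of all genes (325 genes). Without the unnumbered sh-luc library the fold differences shrank to between 1.02-fold and 1.13-fold, and again 0 of 10 transporters and 0% of all genes were called after adjustment.

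**Figure D1:**
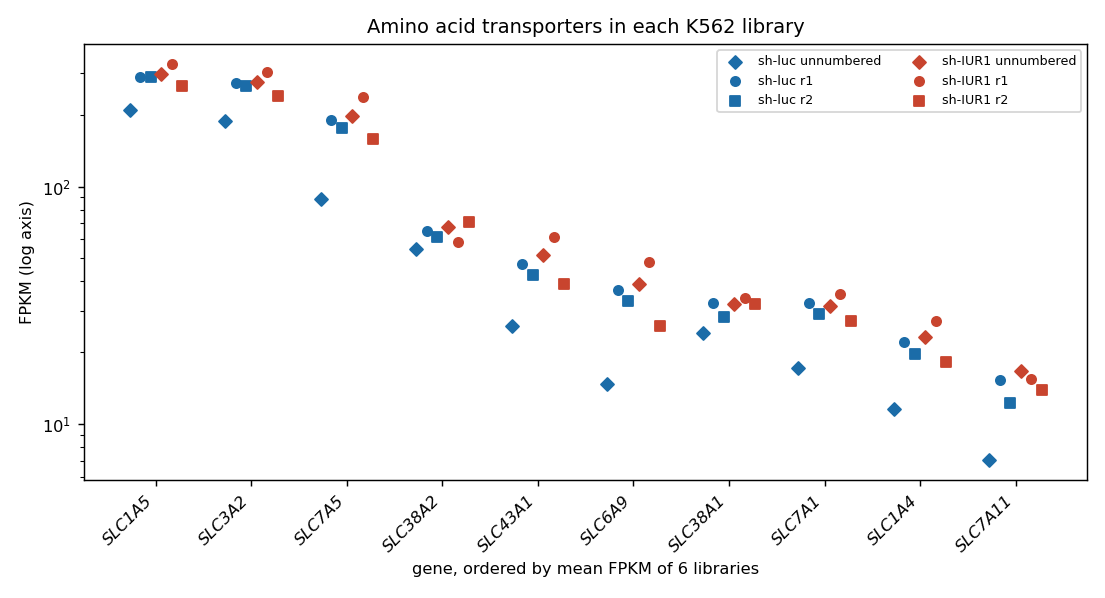
FPKM (log axis) of the 10 amino acid transporters in each of 6 K562 libraries, with genes ordered by their mean over the libraries, sh-luc in blue and sh-IUR1 in red, and 1 point per library. For each gene the unnumbered sh-luc library (blue diamond) is the lowest point, from 7.02 FPKM for SLC7A11 to 210.6 FPKM for SLC1A5.

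Levels differed 20.8-fold between the highest and the lowest transporter when averaged over the 6 libraries. On this length-corrected scale SLC1A5 (280.0 FPKM) and SLC3A2 (257.6 FPKM) led, followed by SLC7A5 (175.4 FPKM), SLC38A2 (63.1 FPKM), SLC43A1 (44.4 FPKM), SLC6A9 (32.8 FPKM), SLC38A1 (30.4 FPKM), SLC7A1 (28.7 FPKM), SLC1A4 (20.3 FPKM) and SLC7A11 (13.4 FPKM). Only the step from SLC7A5 to SLC38A2, 2.78-fold in the means, separated neighbours whose ranges over the libraries did not overlap. Within a library the order was steadier: SLC1A5 was above SLC3A2, and SLC3A2 above SLC7A5, in 6 of 6 libraries. The order of SLC6A9, SLC38A1 and SLC7A1 was not steady, with SLC6A9 above SLC38A1 in 4 of 6 libraries and SLC38A1 above SLC7A1 in 4 of 6.

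The heavy chain SLC3A2 (gene identifier 6520) spans bases 62856109 to 62888860 of chromosome 11 in GRCh38. It was expressed at 188.3, 272.4 and 264.1 FPKM in sh-luc (given as unnumbered, r1, r2 here and throughout) and at 277.0, 303.9 and 240.1 FPKM in the sh-IUR1 libraries in the same order. The unnumbered sh-luc library was low, and sh-IUR1 r2 fell below both numbered sh-luc libraries. Group means were 241.6 ± 46.4 and 273.7 ± 32.0 FPKM (SD, n = 3 in each group), with a log2 fold change of FPKM + 1 of 0.19 (95% confidence interval -0.11 to 0.49).

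SLC7A5, the LAT1 light chain that imports large neutral amino acids such as leucine, spans 87830023 to 87869507 on chromosome 16. Its FPKM was 88.6, 191.5 and 176.1 over the sh-luc and 198.2, 239.0 and 158.8 over the sh-IUR1 libraries. The highest library, sh-IUR1 r1, was 2.70-fold above the lowest, the unnumbered sh-luc library, while sh-IUR1 r2 lay below sh-luc r1 and r2. Means were 152.1 ± 55.5 FPKM in sh-luc and 198.7 ± 40.1 FPKM in sh-IUR1 (SD, n = 3), and the log2 fold change was 0.44 (-0.12 to 1.01). SLC7A5 has pseudogene copies on the same chromosome (SLC7A5P1 and SLC7A5P2), and how reads that match both were counted is not given in the sources used here, so its level is uncertain to that extent.

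SLC7A11, the light chain (xCT) that takes up cystine in exchange for glutamate, lies on chromosome 4 from 138164097 to 138242349. The 3 sh-luc libraries gave 7.02, 15.4 and 12.3 FPKM, and the 3 sh-IUR1 libraries gave 16.7, 15.5 and 13.8 FPKM. Here the highest value was in the unnumbered sh-IUR1 library, and sh-luc r1 lay inside the range of the sh-IUR1 libraries. The mean was 11.6 ± 4.22 FPKM in sh-luc and 15.3 ± 1.43 FPKM in sh-IUR1 (SD, n = 3), a log2 fold change of 0.44 (-0.033 to 0.91).

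The ratios of the light chains to the heavy chain were not constant across the libraries. SLC7A5 and SLC3A2 ranked the libraries in the same order, but SLC7A5 had the wider range, 2.70-fold against 1.61-fold. SLC7A11 ranked them in another order. The ratio of SLC7A5 to SLC3A2 FPKM was 0.471 in the unnumbered sh-luc library, 0.703 in r1 and 0.667 in r2, and 0.715, 0.786 and 0.661 in the sh-IUR1 libraries. For SLC7A11 the ratio to SLC3A2 was 0.0373, 0.0564 and 0.0465 over sh-luc and 0.0603, 0.0510 and 0.0576 over sh-IUR1 libraries. Both ratios were lowest in the unnumbered sh-luc library, and for both the ranges of the groups overlapped.

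SLC43A1 (LAT3) is a facilitative carrier of large neutral amino acids that needs no heavy chain, and it spans 57484534 to 57515702 on chromosome 11. It was found at 25.7, 47.0 and 42.5 FPKM in sh-luc and at 51.5, 61.1 and 38.7 FPKM in sh-IUR1 libraries. The sh-IUR1 r1 value was 1.58-fold that of sh-IUR1 r2, which was lower than both numbered sh-luc libraries. From 38.4 ± 11.2 FPKM in sh-luc to 50.5 ± 11.2 FPKM in sh-IUR1 (SD, n = 3), the log2 fold change was 0.41 (-0.069 to 0.88).

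The cationic amino acid carrier SLC7A1 (CAT1), which imports arginine and lysine, spans 29509414 to 29595688 on chromosome 13. Its values were 17.2, 32.3 and 29.1 FPKM in sh-luc against 31.3, 35.1 and 27.1 FPKM in sh-IUR1 libraries. Apart from the low unnumbered sh-luc library, the groups interleaved. Its means of 26.2 ± 7.94 and 31.2 ± 4.02 FPKM (SD, n = 3 in each group) gave a log2 fold change of 0.28 (-0.15 to 0.71).

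SLC1A5 (ASCT2) and SLC1A4 (ASCT1) exchange neutral amino acids with sodium, and SLC1A5 is a main route of glutamine into growing cells. SLC1A5 (chromosome 19, 46774883 to 46788594) was expressed at 210.6, 289.5 and 288.4 FPKM in sh-luc and 297.9, 329.1 and 264.7 FPKM in sh-IUR1 libraries. Its numbered sh-luc libraries agreed closely and lay within the range of the sh-IUR1 libraries. The means were 262.8 ± 45.3 and 297.2 ± 32.2 FPKM (SD, n = 3 in each group), with a log2 fold change of 0.19 (-0.088 to 0.46). SLC1A4 (chromosome 2, 64988479 to 65023865) was expressed more weakly, at 11.6, 22.0 and 19.6 FPKM in sh-luc and 23.3, 27.0 and 18.3 FPKM in sh-IUR1 libraries. Again sh-IUR1 r2 was below both numbered sh-luc libraries, and the range over the libraries was wider, 2.33-fold against 1.56-fold for SLC1A5. SLC1A4 averaged 17.7 ± 5.47 FPKM in sh-luc and 22.9 ± 4.38 FPKM in sh-IUR1 (SD, n = 3), with a log2 fold change of 0.38 (-0.086 to 0.84).

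SLC38A1 (SNAT1) and SLC38A2 (SNAT2) import glutamine, alanine and other small neutral amino acids with sodium. They are neighbours on chromosome 12, SLC38A1 from 46183063 to 46269043 and SLC38A2 from 46358188 to 46372773, with 89144 bases between them. SLC38A1 was expressed at 24.0, 32.4 and 28.1 FPKM in sh-luc and at 32.2, 33.8 and 32.1 FPKM in sh-IUR1 libraries. Only sh-luc r1 reached the range of the sh-IUR1 libraries, which were nearly equal. With means of 28.2 ± 4.19 and 32.7 ± 0.989 FPKM (SD, n = 3 in each group), SLC38A1 had the smallest unadjusted p-value of the group in limma, 0.0505 (adjusted p = 0.930), and a log2 fold change of 0.22 (-0.00061 to 0.43). SLC38A2 gave 54.6, 65.3 and 61.5 FPKM in sh-luc and 67.8, 58.2 and 71.0 FPKM in sh-IUR1 libraries. It was the exception among the transporters, with its highest value in sh-IUR1 r2 and a low value in sh-IUR1 r1, where most of the others peaked. Its range over the libraries was the narrowest of the 10, 1.30-fold, and its log2 fold change was 0.12 (-0.083 to 0.32), between means of 60.5 ± 5.40 and 65.7 ± 6.68 FPKM (SD, n = 3 in each group).

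SLC6A9 (GlyT1), a sodium-dependent glycine carrier that erythroid cells use for heme synthesis, lies on chromosome 1 from 43996483 to 44031462. It was measured at 14.8, 36.5 and 32.8 FPKM in sh-luc and at 38.8, 48.2 and 25.7 FPKM in sh-IUR1 libraries. SLC6A9 varied most of the 10, with 3.27-fold between the highest and the lowest library and 1.87-fold between sh-IUR1 r1 and r2. The mean was 28.0 ± 11.6 FPKM in sh-luc and 37.6 ± 11.3 FPKM in sh-IUR1 (SD, n = 3), and the log2 fold change was 0.46 (-0.22 to 1.15).

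**Figure D2:**
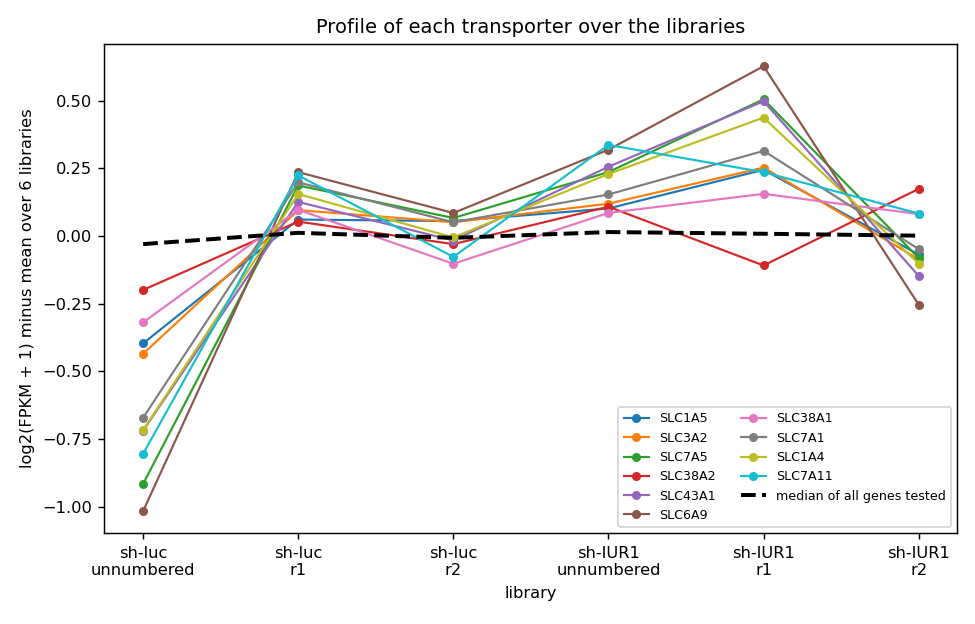
Profile of each transporter over the 6 libraries, as log2(FPKM + 1) minus the gene's mean over the libraries, with 1 line per gene and the median of all 12276 genes tested as a dashed line. The transporters average -0.62 in the unnumbered sh-luc library and 0.32 in sh-IUR1 r1, while the median of all genes stays between -0.029 and 0.015.

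The transporters shared an order of the libraries within each group. In sh-luc the order was unnumbered, r2 and then r1, from low to high, for 10 of 10 transporters and for 27.9% of all genes tested. In sh-IUR1 the r2 library was lowest for 9 of 10 and for 38.4% of all genes, the exception being SLC38A2. It was also below sh-luc r1 for the same 9 transporters and for 52.8% of all genes. The mean centred log2(FPKM + 1) of the group was -0.62, 0.14 and 0.0081 in the sh-luc libraries and 0.19, 0.32 and -0.044 in the sh-IUR1 libraries, where 0 is each gene's mean over the 6 libraries. Relative to the mean of the other 5 libraries, the unnumbered sh-luc library held between 40.5% (SLC6A9) and 84.3% (SLC38A2) of the FPKM of each transporter. The standard deviation of log2(FPKM + 1) over the 6 libraries ranged from 0.14 to 0.58, with a median of 0.37, against a median of 0.098 over all genes tested. Among the 3 sh-luc libraries alone the median was 0.46, against 0.098 over all genes, and between sh-luc r1 and r2 it was 0.10, against 0.054. For the 3 sh-IUR1 libraries it was 0.18, against 0.083. The range within sh-luc was larger than the difference between the group means for each of the 10 transporters, for example 102.8 against 46.6 FPKM for SLC7A5. The low end of that range was the unnumbered library each time. The share of all genes for which this holds was not computed, so whether it is particular to the transporters was not tested.

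The genes of the table that vary most like the transporters were sought by the root mean square difference between centred log2(FPKM + 1) profiles over the 6 libraries, among 10622 other genes averaging 1 FPKM or more. The 5 closest to the average profile of the transporters were VEGFA (difference 0.025), RAB11FIP1 (0.031), COLGALT2 (0.035), DUSP10 (0.035) and KSR1 (0.035). VEGFA, which encodes a secreted angiogenic factor, was at 47.2, 78.4 and 70.1 FPKM in sh-luc and 81.9, 86.4 and 69.0 FPKM in sh-IUR1 libraries, the same order of the 6 libraries as SLC7A5. Among the transporters themselves SLC7A1 was closest to the average (0.039), and SLC38A2 was farthest (0.27). That average includes the transporter itself, which lowers its difference, so these values and those of other genes are not like measures. In the deposited clustering of the same values into 9 clusters, 7 of the 10 transporters were assigned to 1 cluster that holds 13.9% of all listed genes. SLC7A11 and SLC38A1 were both in another (10.3% of genes), and SLC38A2 was in a cluster with 9.77% of genes.

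The comparison of sh-IUR1 with sh-luc asked whether depletion of lncRNA-IUR1 changes gene expression in these cells. The median log2 fold change of the 10 transporters was 0.33, with a range of 0.12 to 0.46, and that of all genes tested was 0.019. The log2 fold change was above 0 for 10 of 10 transporters and for 7119 of 12276 genes. Standard errors ran from 0.089 for SLC38A2 to 0.31 for SLC6A9, and all 10 adjusted p-values from limma were 0.930. Two-sided exact permutation tests of the difference in mean FPKM gave p-values between 0.2 and 0.5, and 0.1 is the smallest that 3 libraries against 3 allow. The 95% confidence intervals included 0 for all 10 transporters.

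Leaving out the unnumbered sh-luc library lowered the median log2 fold change to 0.082, with values from 0.015 for SLC7A1 to 0.15 for SLC43A1 and SLC7A11. The median of all genes was then 0.0047. At an unadjusted p-value under 0.05 limma called 0 of 10 transporters and 1.8% of all genes in that comparison, and the groups overlapped for all 10 transporters, whereas 12.6% of all genes had no overlap. Without it the 95% interval was -0.19 to 0.37 for SLC7A5, -0.081 to 0.37 for SLC7A11 and -0.34 to 0.48 for SLC6A9 on the log2 scale. The number of unadjusted calls also moved with the other libraries. Without sh-luc r1, limma gave an unadjusted p-value under 0.05 for 6 of 10 transporters (SLC7A11, SLC7A5, SLC7A1, SLC1A4, SLC38A1 and SLC43A1) and for 6.97% of all genes. Without sh-IUR1 r2 these were 2 of 10 (SLC1A4 and SLC43A1) and 5.79%, and without sh-IUR1 r1 they were 1 of 10 (SLC38A2) and 1.89%. Without sh-luc r2 they were 0 of 10 and 2.42%, and without the unnumbered sh-IUR1 library 0 of 10 and 1.29%. None of the transporters passed the adjusted threshold in any of these comparisons.

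**Figure D3:**
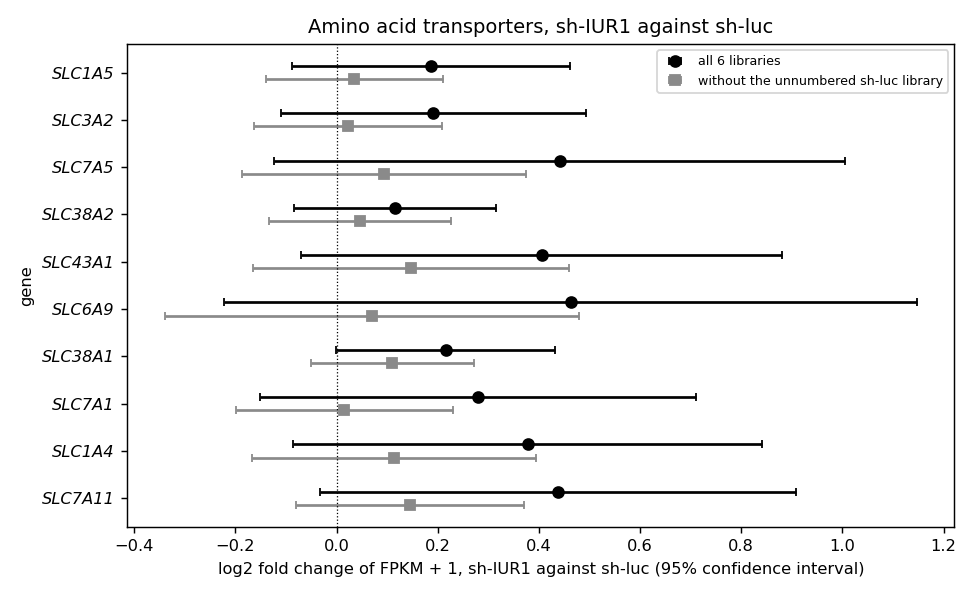
Log2 fold change of FPKM + 1 in sh-IUR1 against sh-luc for each transporter, with 95% confidence intervals from limma, for all 6 libraries (black circles) and without the unnumbered sh-luc library (grey squares). All intervals include 0, and each estimate moves toward 0 without that library, the median from 0.33 to 0.082.

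Other carriers of amino acids and related compounds were examined as a list of 48 genes, of which 21 were listed and tested. Limma called 0 of 21 higher and 0 lower at an adjusted p-value under 0.05, and 0 of 21 at an unadjusted p-value under 0.05. Their median log2 fold change was 0.017, with 12 above 0 and 9 below. The unnumbered sh-luc library was the lowest for 10 of the 21, against 37.5% of all genes tested and 10 of 10 of the transporters above. Summed FPKM of the 21 genes was 336.5, 343.9 and 367.3 for sh-luc and 350.2, 355.6 and 358.0 for sh-IUR1. That of the 10 transporters was 642.4, 1004 and 954.5 for sh-luc and 1035, 1151 and 890.3 for sh-IUR1. The 3 most abundant of the 21 were SLC38A5 (SNAT5), a glutamine carrier of the same family as SLC38A2, at a mean of 120.9 FPKM, the lysosomal protein gene MFSD12 at 52.7 FPKM, and the creatine carrier gene SLC6A8 at 38.7 FPKM. Their log2 fold changes were 0.027, 0.089 and -0.013.

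Genes of the amino acid response were examined as a list of 23, which held eIF2α and its kinases, ATF4 with its partners and targets, NFE2L2 (NRF2) with KEAP1 and BACH1, and MYC. Of these, 22 were tested, and 16 of the 22 were lowest in the unnumbered sh-luc library, against 37.5% of all genes tested. Their summed FPKM was 1233, 2166 and 1968 for sh-luc and 2146, 2330 and 1875 for sh-IUR1 libraries. DDIT4, named after its values were seen, had the highest mean of the list, 485.1 FPKM, and weighed heavily in this sum. It ranged from 169.4 FPKM in the unnumbered sh-luc library to 620.4 FPKM in sh-IUR1 r1. ATF4 mRNA had a narrow range, with 252.2, 294.7 and 289.4 FPKM in sh-luc and 286.1, 279.6 and 297.5 FPKM in sh-IUR1 libraries. The levels of its target DDIT3 (CHOP) were 41.9, 97.2 and 88.8 FPKM in sh-luc and 100.5, 111.1 and 85.6 FPKM in sh-IUR1 libraries, the same order of the 6 libraries as SLC7A5. For ASNS, the asparagine synthetase gene, they were 176.0, 265.1 and 238.3 FPKM and 278.9, 308.0 and 212.8 FPKM. The stress pseudokinase gene TRIB3 gave a log2 fold change of 0.48, DDIT3 0.46, ASNS 0.24, MYC 0.12, NFE2L2 0.092 and ATF4 0.048. Of the 22 genes, 17 had a log2 fold change above 0 and 5 below. The 5, named after their values were seen, were KEAP1, EIF2S1, EIF2AK2, EIF2AK3 and EIF2AK4, the lowest being KEAP1 at -0.082. Limma called 0 of the 22 genes after adjustment and 0 at an unadjusted p-value under 0.05. The median log2 fold change was 0.21 with all libraries and 0.043 without the unnumbered sh-luc library. The part of this response in the levels of the transporters was not tested.

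Promoter sequences were read for motifs of the factors named above. Many of the transporters, chosen by name, are known ATF4 targets, so the share with its motif is not independent of that choice. Whether any motif bears on the shared order of libraries was not tested. RefSeq windows in GRCh38.p14, each from 250 bases before a transcription start to 50 bases after it, were found for 9 of the 10 genes (16 windows). SLC7A11 had no window and was not searched. Both strands were searched for TGATGNAA, the core of the C/EBP-ATF response element that ATF4 binds, for CACGTG, the E-box of MYC, and for TGACNNNGC, the core of the antioxidant response element of NRF2. The response element core was found in 1 window each of 5 of the 9 genes, or 5 of 16 windows, and in 3.62% of the 35116 windows of all genes. The E-box was found in 3 of 16 windows (SLC43A1, SLC7A5 and SLC1A5) and in 7.26% of all windows. The antioxidant core was in 4 of 16 windows (SLC3A2, SLC7A1, SLC7A5 and SLC1A5) and in 13.3% of all windows. The matches did not overlap each other. They describe letters in these windows and not binding.

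The 5 response element cores are shown with up to 10 bases on either side, as read 5′ to 3′ on the strand of the gene. The match is in capitals (TGATGNAA, or its reverse complement where the match is on the other strand).
SLC1A5, chr19:46784894-46784921, minus strand: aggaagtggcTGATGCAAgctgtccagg
SLC7A1, chr13:29595664-29595691, minus strand: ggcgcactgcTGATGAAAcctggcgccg
SLC38A1, chr12:46266503-46266530, minus strand: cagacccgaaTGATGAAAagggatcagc
SLC1A4, chr2:64989382-64989409, plus strand: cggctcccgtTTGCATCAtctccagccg
SLC3A2, chr11:62881726-62881748, plus strand: gcaggactccTTACATCAgctcc

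The match of SLC1A5 lay 97 to 90 bases before an internal start of the gene. That of SLC7A1 lay at bases 8 to 15 after its outermost start, and that of SLC3A2 at bases 38 to 45 after an internal start. The SLC38A1 and SLC1A4 matches spanned internal starts, from 4 bases before to base 4 and from 7 bases before to base 1. No match of this core was found in the windows of SLC7A5, SLC43A1, SLC38A2 and SLC6A9, which says only that these letters are not in those windows.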

How the data were processed

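According to the methods, the authors trimmed and masked the reads, mapped them to hg38 and computed RPKM with SAMtools 0.1.19. The aligner and the annotation are not given in the sources used here. The deposited values are FPKM with 2 decimals for 12486 genes, 0 of which have a standard deviation under 0.05 FPKM over the 6 libraries. The authors also deposited a score per gene and library, which is the z-score of FPKM over the 6 libraries. They further deposited a cluster number and a membership fraction per gene. Of these only the cluster number was used, as a description.

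Entrez identifiers were matched to RefSeq GRCh38.p14 symbols (12363 of 12486). The 12276 genes averaging 0.1 FPKM or more were fitted as log2(FPKM + 1) with limma 3.58.1 in R 4.3.3 (eBayes with a trend, group as the only term) and adjusted by the Benjamini-Hochberg method. The added 1 shrinks fold changes where FPKM is low. The methods describe 3 independent groups of cells. In simulated data 193 of 200 genes with a log2 change of 1, and 5 unchanged genes, were called among 12276. The 200 were drawn at random from all genes, with independent noise. That rate does not apply to the transporters, whose median standard deviation within sh-luc was 0.46 against 0.098 over all genes. Sequencing depth is unknown: no depth tried placed more than 46.7% of the low values of single-exon genes in a library within 0.1 of a whole fragment. Python 3.11.15 with numpy 2.4.6, pandas 2.3.3 and matplotlib 3.10.9 was used otherwise.

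The transporters and lists were chosen with earlier results of these data known. Named genes were the transporters, the 3 most abundant other carriers and any with an unadjusted p-value under 0.05, 6 genes of the amino acid response, and the 5 genes with the most similar profile. Alternatives were a pseudocount of 0.1, no filter or one at 1 FPKM, quantile normalization, median-ratio scaling, eBayes with no trend, an unmoderated model, a replicate block, and each library left out.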

Additional observations from a re-analysis of the deposited data

How the results depend on the processing

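Over 14 alternatives, 140 of 140 log2 fold changes of the transporters kept their direction. Part of that count was fixed in advance. Changing the filter, dropping the trend or the moderation, and adding the replicate block cannot alter a transporter's log2 fold change in this balanced design. Limma called 0 transporters, 0 other carriers and 0 genes at an adjusted p-value under 0.05 over the alternatives, with the smallest adjusted p-value of a transporter at 0.667. The median log2 fold change was 0.31 to 0.34 under the alternatives that kept all libraries. Leaving out 1 library gave 0.082, without the unnumbered sh-luc library, to 0.50. The number of genes at an unadjusted p-value under 0.05, 325 with the settings of the report, was 856 without sh-luc r1, 711 without sh-IUR1 r2 and 158 without the unnumbered sh-IUR1 library, and the cause was not tested. Under the replicate block it was 533 genes, or 4.34%, including 5 of the 10 transporters. With quantile normalization it was 312 genes, or 2.54%, including SLC38A1. Whether libraries with equal numbers are paired is unknown. Their deviations from the group means correlated at 0.044 (unnumbered), 0.39 (r1) and -0.34 (r2), and those of libraries with unequal numbers at -0.55 to 0.52. Deviations within a group sum to 0 and so depend on each other, which is why these correlations cannot decide it. The number of fragments behind each FPKM is unknown, so counting error could not be separated from the spread between libraries.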
